A study of Homo sapiens with 8 samples.

Results

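Cadherins and protocadherins are the 92 gene symbols, of 26364 in the count file, that consist of CDH or PCDH, optional further letters and a closing number. They hold 5 type I and 13 type II classical cadherins, 5 other cadherins, 5 cadherin-related genes (CDHR), 11 non-clustered protocadherins and 15, 16 and 22 genes of the alpha, beta and gamma protocadherin clusters. PCDH11X and the pseudogenes of the clusters do not match this pattern. The cells were 2 stable, G418-resistant clones of LN229, a human glioblastoma cell line, 1 clone per construct. Surv-GFP (D6) expresses Survivin, the product of BIRC5, fused to eGFP with a functional nuclear export sequence (NES), and SurvNESmut-GFP (L2) expresses the fusion with the NES leucines 96 and 98 replaced by alanine, in addition to endogenous Survivin. Both clones were studied without drug and after 48 h of exposure to 50 µM temozolomide (TMZ), an alkylating drug dissolved in DMSO, in 4 groups of 2 libraries, lettered a and b. The study describes its transcriptome data as independent biological replicates, each in technical duplicate, but the labels do not say which of these the letters mark, so p-values measure the spread between these libraries. Whether the untreated cells of these libraries received DMSO is not stated. With 1 clone per construct, the construct and other differences between the clones cannot be told apart.

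Cadherins are transmembrane proteins that bind other cells through calcium-dependent extracellular cadherin repeats. Classical cadherins bind catenins, which link them to actin, and N-cadherin (CDH2) is the classical cadherin typical of neural and mesenchymal cells, whereas E-cadherin (CDH1) is typical of epithelia. Clustered protocadherins lie in tandem on chromosome 5, and in the alpha and gamma clusters each variable first exon has its own promoter and is spliced to constant exons shared by the whole cluster, so that a cell's choice of promoters sets its combination of surface proteins. CTCF and cohesin bind at these promoters and loop them to enhancers, and DNA methylation holds silent promoters off.

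Since many clustered members fell together upon TMZ, stretches of their promoters are shown first, from the RefSeq promoter table (GRCh38.p14), which holds 250 bases before and 50 after an annotated start and matched 72 of the 92 symbols. Each stretch holds, in capitals, the run of 8 bases that most genes of the cluster share, with 30 bases before it and 15 after. The runs were picked from these same promoters, so their counts are a description. All stretches lie on the plus strand.
PCDHA1, chr5:140786068-140786120: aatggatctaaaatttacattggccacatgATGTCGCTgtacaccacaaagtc
PCDHA7, chr5:140834154-140834206: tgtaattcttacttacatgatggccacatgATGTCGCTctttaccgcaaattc
PCDHA10, chr5:140855823-140855875: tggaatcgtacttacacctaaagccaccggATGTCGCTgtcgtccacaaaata
PCDHA12, chr5:140875226-140875278: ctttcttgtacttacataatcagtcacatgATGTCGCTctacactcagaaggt
PCDHB5, chr5:141135161-141135213: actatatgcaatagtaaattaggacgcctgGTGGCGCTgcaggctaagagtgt
PCDHB8, chr5:141177759-141177811: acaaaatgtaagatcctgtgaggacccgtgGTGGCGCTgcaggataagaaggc
PCDHB15, chr5:141245296-141245348: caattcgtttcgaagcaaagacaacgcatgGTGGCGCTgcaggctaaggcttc
PCDHB16, chr5:141182292-141182344: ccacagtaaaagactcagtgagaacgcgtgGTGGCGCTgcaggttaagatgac
PCDHGB6, chr5:141407908-141407960: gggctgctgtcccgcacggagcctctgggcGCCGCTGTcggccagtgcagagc
PCDHGA10, chr5:141412915-141412967: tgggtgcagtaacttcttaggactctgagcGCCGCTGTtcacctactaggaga
PCDHGC3, chr5:141475864-141475916: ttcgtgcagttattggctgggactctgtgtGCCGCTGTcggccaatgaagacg
These genes were chosen because they carry the results given further on, either a large difference between the clones or a change upon TMZ. ATGTCGCT stood in 9 of the 13 alpha genes with an entry and in 0.234% of all 35116 promoters, both strands searched. GTGGCGCT was present in 13 of 14 beta genes and in 1.15% of all promoters, and GCCGCTGT in 11 of 20 gamma genes and 1.63% of all. All 3 runs hold the letters CGCT, present in 12 alpha, 14 beta and 20 gamma genes with an entry, but also in 70.0% of all promoters. The alpha run began 42 to 85, the beta run 1 to 83 and the gamma run 42 to 222 bases before the annotated start. The genes without the run of their cluster included PCDHA9 and PCDHB1, both with few counts in all libraries, and PCDHAC1 and PCDHAC2, the C-type alpha genes. Also without it were PCDHA11 and 9 gamma genes, among them PCDHGB2 and PCDHGB7, which were among the most expressed gamma genes.

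The 8 libraries held 15826923 to 18861603 reads assigned to genes, of which the members took 0.147% to 0.211%. After edgeR's filter on low counts 14201 genes were tested, with 70 of the 92 members among them. The filter keeps a member that is high in a single group, so counts over the 70 describe the genes that passed. Levels are CPM, read counts scaled to the TMM-adjusted size of the library, given for library a and then library b, and serve to compare groups. They are not divided by gene length, so sums, shares and ranks over genes within a library also depend on gene length. BIRC5, a check that cannot tell the constructs apart, had 1152 and 1113 CPM in untreated Surv-GFP and 407 and 414 CPM in untreated SurvNESmut-GFP cells, with transgene and endogenous reads not separated. With TMZ BIRC5 rose to 1938 and 2029 CPM in Surv-GFP (0.81 ± 0.05 on the log2 scale) and fell to 262 and 253 CPM in SurvNESmut-GFP cells (-0.67 ± 0.05), so that the difference between the clones went from -1.46 ± 0.05 to -2.95 ± 0.05. CDKN1A, which encodes the p53 target p21, rose upon TMZ from 86.6 and 77.3 to 908 and 975 CPM in Surv-GFP and from 117 and 119 to 429 and 492 CPM in SurvNESmut-GFP cells. Of the 10 markers of glial and neural stem cells 7 were tested, and their summed level was 3822 to 6037 CPM in all libraries, of which VIM was the largest part. The astrocyte marker GFAP was near or at 0, with 0.921 and 0.331 CPM without and 0.107 and 0 CPM with TMZ in Surv-GFP and 0.434 and 0.556 CPM without and 0.175 and 0.252 CPM with TMZ in SurvNESmut-GFP cells, and so were SOX9 and AQP4. The 5 endothelial and 5 haematopoietic markers summed to at most 1.08 and 0.818 CPM, with CLDN5 at 0 in all 4 groups. The replicates with the widest spread were those of TMZ-exposed SurvNESmut-GFP cells (chi-square per degree of freedom 5.74, against 2.203 to 2.66 in the other groups).

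To see how TMZ changes the family, exposed and unexposed libraries of each clone were compared. In Surv-GFP cells 37 of the 70 tested members fell and 3 rose (edgeR's quasi-likelihood F test, Benjamini-Hochberg adjusted p of 0.05 over all tested genes), beside 58.9% of all tested genes called, 28.9% lower and 30.1% higher. In SurvNESmut-GFP cells 30 members fell and 3 rose, beside 37.8% of all genes called, 19.1% lower and 18.6% higher. The members' median log2 fold change was -0.57 in the Surv-GFP and -0.33 in the SurvNESmut-GFP clone, whereas the medians of all genes were 0 and 0.0035. Both clones shared 24 of the falling members, which is 64.9% of those in Surv-GFP and 80.0% of those in SurvNESmut-GFP cells. The overlap over all tested genes was not counted, so these shares do not set the members apart from other genes. In bulk RNA, fewer cells that express a gene and less RNA per cell cannot be told apart. Glial and neural stem markers summed to 5972 and 6037 CPM in the untreated and to 3822 and 3907 CPM in the TMZ-exposed Surv-GFP libraries, and to 4628 and 4818 against 4061 and 4174 CPM in SurvNESmut-GFP cells. VIM was the largest part, and the markers did not move together. CD44 went from 566 and 582 to 619 and 604 CPM in Surv-GFP and from 656 and 650 to 742 and 722 CPM in SurvNESmut-GFP. S100B went from 798 and 756 to 248 and 279 CPM in Surv-GFP and from 41.2 and 40.1 to 14.3 and 19.3 CPM in SurvNESmut-GFP. VIM, NES, SOX2 and PDGFRA were lower in the exposed libraries of both clones, OLIG2 only in those of Surv-GFP. The 8 epithelial markers summed to 162 to 165 CPM without and 311 to 318 CPM with TMZ in Surv-GFP, and to 142 to 149 CPM without and 207 to 238 CPM with TMZ in SurvNESmut-GFP cells, but did not move together. The keratins KRT18 (129 and 129.6 CPM without and 270.5 and 264 CPM with TMZ in Surv-GFP) and KRT8 (27.6 and 25.9 CPM without and 41.3 and 41.0 CPM with TMZ) carried the sum and rose in both clones. KRT14 fell in Surv-GFP cells (3.41 and 2.70 CPM without and 1.123 and 1.32 CPM with TMZ), ESRP1 had 4.99 and 4.19 CPM without and 5.51 and 4.30 CPM with TMZ there, and EPCAM, KRT5, KRT19 and GRHL2 were near or at 0 in all groups. The part of these shifts in the results was not tested.

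The protocadherin clusters on chromosome 5 held most of the falling members, as they hold most of the 70 tested ones. Of their 53 genes 49 were tested, and 30 fell (61.2%) and 1 rose in Surv-GFP cells, beside 28.9% of all tested genes lower. In SurvNESmut-GFP cells 24 fell (49.0%) and 0 rose, beside 19.1% of all tested genes lower. By edgeR at an unadjusted p under 0.05 the count of risen genes in SurvNESmut-GFP was also 0, and DESeq2 gave 0. Over the 49 genes the log2 fold changes had medians of -0.66 (Surv-GFP) and -0.37 (SurvNESmut-GFP). The 8 tested non-clustered protocadherins had medians of -0.64 and -0.42, with 62.5% lower in each clone, so the decrease was not particular to the clusters. Leaving out the untreated SurvNESmut-GFP replicate a lowered the count of fallen members in that clone from 30 to 17, of which 6 were beta genes.

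**Figure D1:**
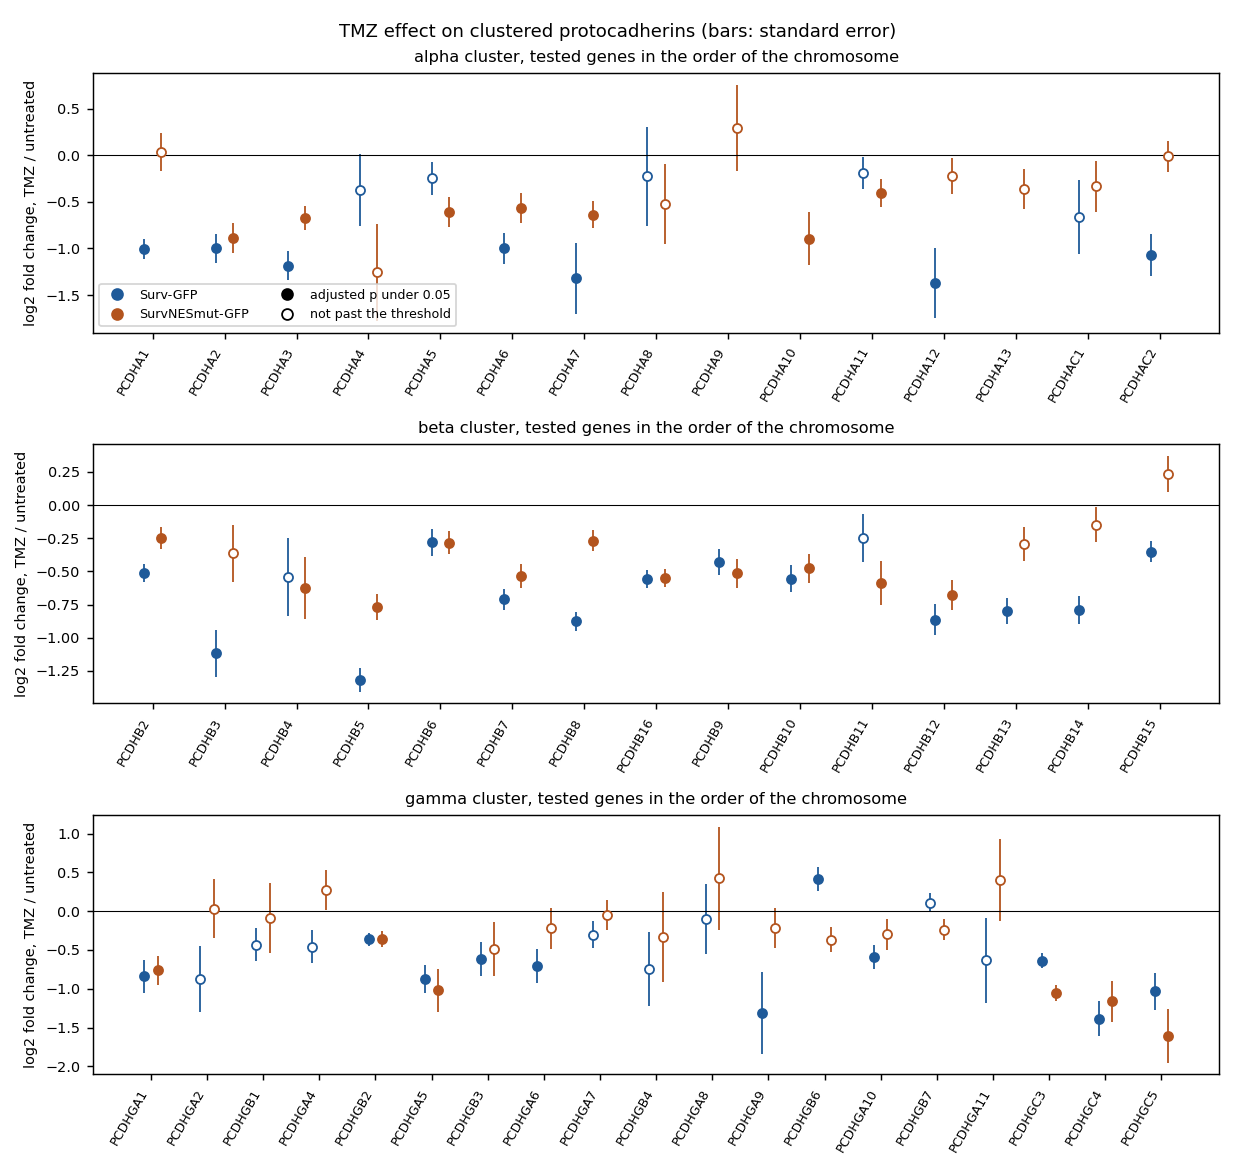
Log2 fold change of TMZ-exposed over untreated cells with its standard error, for the tested genes of the alpha, beta and gamma clusters in chromosomal order, in Surv-GFP (blue) and SurvNESmut-GFP (orange) cells; filled points passed an adjusted p of 0.05 and the 3 alpha genes with at most 3 counts in a Surv-GFP group have no blue point. All beta genes of Surv-GFP lie below 0, with 13 of 15 called, and PCDHGB6 is the only filled point above 0.

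The beta cluster, whose genes have a single exon and no constant part, fell in nearly every tested gene of Surv-GFP cells. In Surv-GFP cells 13 of the 15 tested beta genes were lower upon TMZ, and the log2 fold changes of all 15 lay between -1.32 and -0.25. In SurvNESmut-GFP cells 11 fell, within a range of -0.77 to 0.24. Of all tested genes 28.9% were lower in Surv-GFP and 19.1% in SurvNESmut-GFP cells. PCDHB5 had 76.4 and 77.0 CPM in untreated and 30.3 and 31.2 CPM in TMZ-exposed Surv-GFP cells, a log2 fold change of -1.32 ± 0.09 (SE, n = 2 per group, adjusted p = 2.01e-09 by edgeR). In SurvNESmut-GFP cells it went from 45.3 and 38.3 to 21.6 and 27.5 CPM (-0.77 ± 0.10, adjusted p = 1.18e-05). PCDHB5 was thus lower in every exposed library than in every unexposed library of the same clone.

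PCDHB16 fell in both clones, from 67.0 and 61.9 to 41.8 and 45.9 CPM in Surv-GFP (-0.56 ± 0.07) and from 58.7 and 59.9 to 38.9 and 42.1 CPM in SurvNESmut-GFP cells (-0.55 ± 0.07). The difference between these effects was 0.01 ± 0.10 with an adjusted p of 0.963. PCDHB7 went from 57.4 and 58.3 to 33.6 and 37.2 CPM in Surv-GFP and from 39.7 and 37.5 to 23.8 and 29.6 CPM in SurvNESmut-GFP cells, and fell in both (-0.71 ± 0.08 and -0.53 ± 0.09). These 2 genes differed between exposed and unexposed libraries without overlap in either clone.

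PCDHB8 had 50.0 and 48.4 CPM in untreated and 25.7 and 28.0 CPM in exposed Surv-GFP cells (-0.87 ± 0.07), and 27.7 and 27.8 CPM without and 22.0 and 24.1 CPM with TMZ in SurvNESmut-GFP cells (-0.27 ± 0.08). PCDHB2 fell from 59.5 and 60.2 to 39.8 and 44.3 CPM in Surv-GFP (-0.51 ± 0.07) and from 35.7 and 34.8 to 27.6 and 31.8 CPM in SurvNESmut-GFP cells (-0.25 ± 0.08). The calls of both genes in SurvNESmut-GFP were lost when either untreated library or TMZ replicate a was left out, and with DESeq2. PCDHB15 fell in Surv-GFP from 32.8 and 32.5 to 25.2 and 26.1 CPM (-0.35 ± 0.08, adjusted p = 0.00131), but in SurvNESmut-GFP cells it had 6.02 and 5.56 CPM without and 7.36 and 6.24 CPM with TMZ (0.24 ± 0.13, adjusted p = 0.183). Beta genes resemble each other in sequence: 1.37% to 49.3% of the runs of 50 bases in their GENCODE v29 transcripts also occur in another gene, most of all in PCDHB8, whose reads could be shared with PCDHB13.

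**Figure D2:**
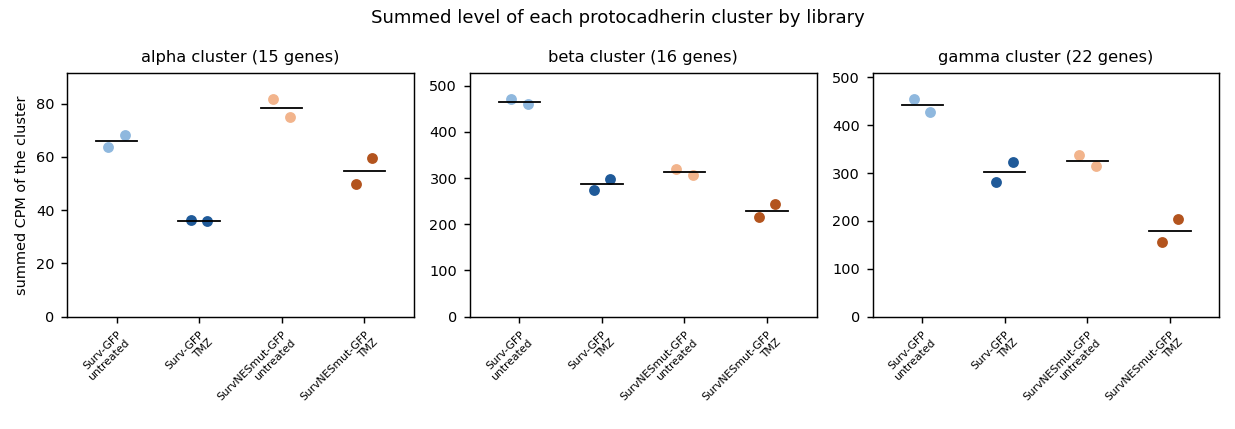
Summed CPM of all genes of the alpha, beta and gamma clusters in each of the 8 libraries (points) with the group mean (line), on axes that start at 0. In all 3 clusters and both clones the exposed libraries lie below the unexposed libraries of the same clone.

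Summed over its 16 genes, the beta cluster had 471 and 461 CPM in untreated and 275 and 297 CPM in exposed Surv-GFP cells, and 319 and 308 CPM against 215 and 243 CPM in SurvNESmut-GFP cells. The 22 gamma genes summed to 454 and 429 CPM without and 282 and 322 CPM with TMZ in Surv-GFP, and to 339 and 314 CPM without and 156 and 203 CPM with TMZ in SurvNESmut-GFP cells. The exposed and unexposed sums did not overlap in either clone. PCDHGC3, a C-type gamma gene, took 64.9% to 78.0% of the gamma counts in each library. Without PCDHGC3 the gamma sums were 136 and 129 CPM against 93.8 and 113 CPM in Surv-GFP and 79.1 and 69.1 CPM against 54.7 and 60.5 CPM in SurvNESmut-GFP cells, again without overlap.

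The C-type gamma genes, which are expressed in many neural cells regardless of promoter choice, fell in both clones. PCDHGC3 went from 318 and 300.0 to 188 and 209 CPM in Surv-GFP (-0.64 ± 0.10, adjusted p = 3.61e-05) and from 259 and 245 to 101 and 143 CPM in SurvNESmut-GFP cells (-1.05 ± 0.10, adjusted p = 7.01e-07). PCDHGC4 fell from 3.79 and 3.31 to 1.28 and 1.43 CPM and from 2.55 and 2.22 to 1.17 and 0.946 CPM, and PCDHGC5 from 3.41 and 4.42 to 1.76 and 2.07 CPM and from 2.60 and 1.67 to 0.701 and 0.693 CPM. Over the 19 tested gamma genes 10 fell (52.6%) and 1 rose in Surv-GFP and 6 fell (31.6%) in SurvNESmut-GFP cells, with medians of -0.63 and -0.30. Of all tested genes 28.9% and 19.1% were lower in these comparisons. All 6 gamma genes that fell in SurvNESmut-GFP were also among the 10, an overlap that was not counted over all genes.

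Among the A and B type gamma genes the responses differed. PCDHGB2 fell from 57.7 and 53.6 to 38.8 and 47.9 CPM in Surv-GFP and from 24.8 and 22.7 to 17.7 and 19.4 CPM in SurvNESmut-GFP cells, with log2 fold changes of -0.36 ± 0.09 and -0.36 ± 0.11. These calls were lost without TMZ replicate a of the Surv-GFP clone, and without untreated or TMZ replicate a of the SurvNESmut-GFP clone. PCDHGA10 fell from 10.5 and 10.6 to 6.63 and 7.40 CPM in Surv-GFP (-0.59 ± 0.16), and had 5.21 and 4.67 CPM without and 3.04 and 5.04 CPM with TMZ in SurvNESmut-GFP cells (-0.30 ± 0.20, adjusted p = 0.262). PCDHGB6 rose from 10.2 and 8.61 to 11.9 and 13.3 CPM in Surv-GFP (0.42 ± 0.15, adjusted p = 0.0254), whereas SurvNESmut-GFP cells had 10.9 and 9.17 CPM without and 6.37 and 9.27 CPM with TMZ (-0.37 ± 0.16, adjusted p = 0.0889). Without replicate b of either Surv-GFP group, or with DESeq2, the rise of PCDHGB6 was not called. PCDHGB7 (0.11 ± 0.12 and -0.24 ± 0.14) and PCDHGA7 (-0.30 ± 0.17 and -0.05 ± 0.19) did not pass the threshold in either clone.

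Of the 15 alpha genes, all of them tested, 7 fell in each clone (46.7%), beside 28.9% (Surv-GFP) and 19.1% (SurvNESmut-GFP) of all tested genes. The clones shared 4 of these, 57.1% of either list, an overlap that was not counted over all genes. PCDHA2 fell in both clones, from 7.70 and 9.66 to 4.71 and 3.96 CPM in Surv-GFP (-0.996 ± 0.16) and from 8.24 and 8.28 to 4.27 and 4.66 CPM in SurvNESmut-GFP cells (-0.89 ± 0.16). PCDHA3 behaved alike, from 8.24 and 8.78 to 3.26 and 4.25 CPM (-1.18 ± 0.16) and from 12.6 and 12.2 to 7.01 and 8.57 CPM (-0.67 ± 0.13). PCDHA6 and PCDHA7 were the other shared genes, with -0.997 ± 0.16 and -1.32 ± 0.38 in Surv-GFP and -0.57 ± 0.16 and -0.64 ± 0.14 in SurvNESmut-GFP cells, and their calls in SurvNESmut-GFP were lost without its untreated replicate a. The call of PCDHA6 was also lost without TMZ replicate a of that clone or with DESeq2, and that of PCDHA7 in Surv-GFP without its TMZ replicate a. PCDHA5 had 4.77 and 4.64 CPM without and 4.06 and 3.85 CPM with TMZ in Surv-GFP (-0.25 ± 0.18, adjusted p = 0.256) and fell from 8.02 and 6.50 to 4.21 and 5.36 CPM in SurvNESmut-GFP cells (-0.61 ± 0.16), a call lost without replicate a of either group. PCDHA1 fell by 1.01 on the log2 scale in Surv-GFP, from 22.3 and 24.8 to 12.5 and 10.9 CPM, and had 2.82 and 2.56 CPM without and 2.63 and 2.90 CPM with TMZ in SurvNESmut-GFP cells (0.04 ± 0.21, adjusted p = 0.910). Between 23.1% and 65.2% of the runs of 50 bases in alpha transcripts, and 34.0% to 71.1% in gamma transcripts, occur in another gene. The constant exons add to this, but their part was not separated, and PCDHA10 shares 15.1% of its runs with genes that are not members. The sources used here do not say how such reads were counted.

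Outside the clusters, the 11 non-clustered protocadherins, single genes whose products lack the constant domains of the clusters, included 8 with enough counts. In each clone 5 of the 8 fell and 1 rose, beside 28.9% (Surv-GFP) and 19.1% (SurvNESmut-GFP) of all tested genes lower. PCDH10, a delta protocadherin often silenced by methylation in tumours, fell from 97.6 and 96.0 to 42.7 and 50.4 CPM in Surv-GFP (-1.06 ± 0.07, adjusted p = 1.55e-09) and from 20.5 and 19 to 7.42 and 7.25 CPM in SurvNESmut-GFP cells (-1.43 ± 0.11, adjusted p = 6.85e-08). PCDH18 fell from 17.9 and 17.8 to 3.80 and 3.96 CPM in Surv-GFP (-2.20 ± 0.15) and from 11.6 and 8.56 to 5.03 and 4.73 CPM in SurvNESmut-GFP cells (-1.05 ± 0.16). In every one of these pairs the exposed libraries lay below the unexposed ones.

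PCDH17, which regulates axon and synapse formation, fell from 45.7 and 44.9 to 25.3 and 28.8 CPM (-0.75 ± 0.07) and from 32.6 and 30.5 to 22.7 and 23.6 CPM (-0.45 ± 0.08). PCDH20 had few reads, with 45 and 22 counts without and 6 and 10 counts with TMZ in Surv-GFP and 66 and 47 counts without and 25 and 23 counts with TMZ in SurvNESmut-GFP libraries, and fell in both clones (-2.03 ± 0.44 and -1.09 ± 0.31). Its fall in SurvNESmut-GFP was not called without the untreated replicate a of that clone or with DESeq2, and 95.8% of its runs of 50 bases are shared with the overlapping annotation AL592490.1. PCDH9, with 43.5 and 41.3 CPM without and 44.3 and 43.9 CPM with TMZ in Surv-GFP and 14.6 and 14.4 CPM without and 14.5 and 12.2 CPM with TMZ in SurvNESmut-GFP cells, passed in neither clone (0.06 ± 0.07 and -0.12 ± 0.10).

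**Figure D3:**
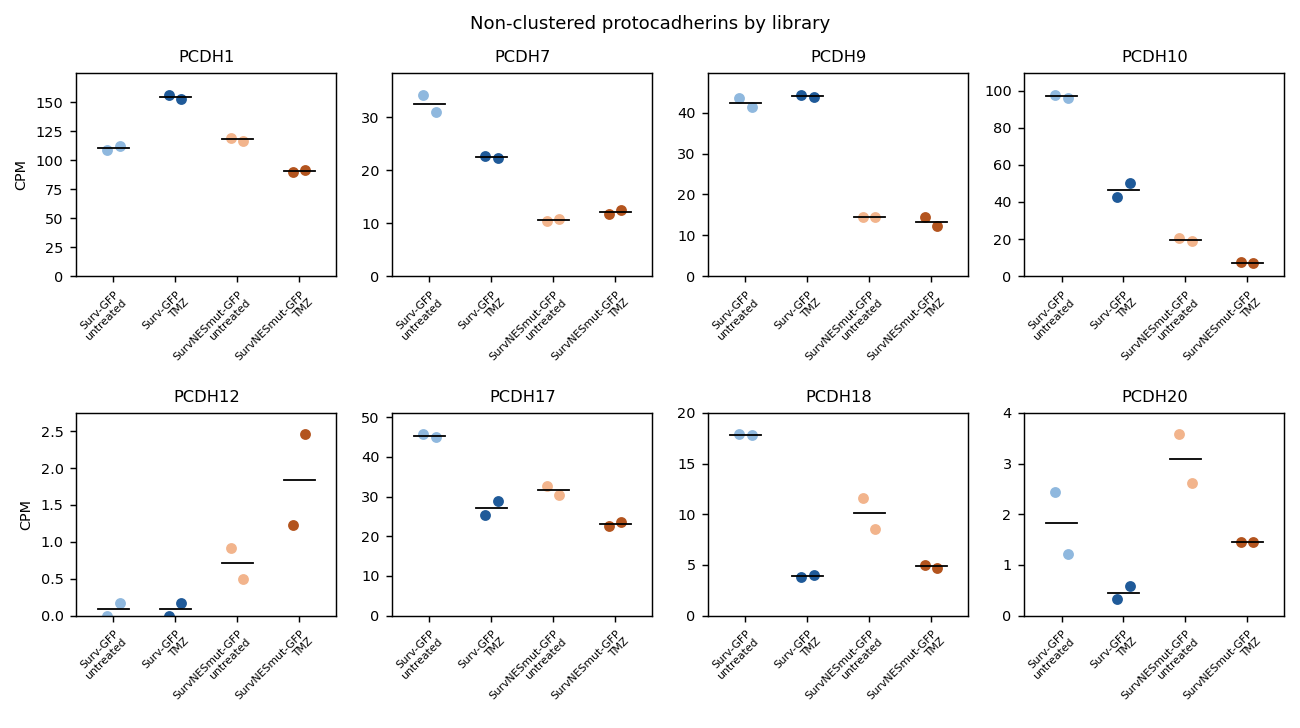
CPM of the 8 tested non-clustered protocadherins in each library (points) with the group mean (line), on axes that start at 0. PCDH10, PCDH17, PCDH18 and PCDH20 are lower in the exposed libraries of both clones, and PCDH1 goes up in Surv-GFP and down in SurvNESmut-GFP cells.

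PCDH1, a protocadherin of epithelial and neural cell contacts, moved in opposite directions. It rose from 109 and 112 to 156 and 153 CPM in Surv-GFP cells (0.48 ± 0.05, adjusted p = 1.94e-07) and fell from 119 and 117 to 89.7 and 91.3 CPM in SurvNESmut-GFP cells (-0.38 ± 0.05, adjusted p = 1.20e-05). Without TMZ the difference of PCDH1 between the clones did not pass (0.10 ± 0.05, adjusted p = 0.0845). It was the only member called in opposite directions in the clones. PCDH7 fell in Surv-GFP from 34.2 and 31.0 to 22.7 and 22.4 CPM (-0.53 ± 0.08), whereas SurvNESmut-GFP cells had 10.4 and 10.7 CPM without and 11.7 and 12.5 CPM with TMZ (0.20 ± 0.11, adjusted p = 0.164). PCDH12, a protocadherin known from endothelium, had 0 and 3 counts without and 0 and 3 counts with TMZ in Surv-GFP and 17 and 9 counts without and 21 and 39 counts with TMZ in SurvNESmut-GFP libraries, and rose in the latter (1.35 ± 0.46, adjusted p = 0.0298). That call was lost without either untreated library or TMZ replicate b of that clone, and with DESeq2. Exons of PCDH12 overlap RNF14 on the opposite strand, those of CDH2, CDH13, PCDH9 and PCDH17 overlap antisense or long non-coding annotations, and the sources used here do not state strand-specific counting, so that reads of both strands may be mixed.

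Among the classical cadherins few genes were called upon TMZ. Of the 10 tested type I and type II genes 2 fell in Surv-GFP cells and 0 rose (0 by edgeR also at an unadjusted p under 0.05, and 0 by DESeq2), and 1 fell and 1 rose in SurvNESmut-GFP cells. With 28.9% and 19.1% of all genes called lower in these comparisons, the counts over 10 genes do not set the class apart from all genes. CDH2 had 239 and 232 CPM in untreated and 215 and 214 CPM in exposed Surv-GFP cells, a small decrease (-0.14 ± 0.05, adjusted p = 0.0175) that was not called without replicate a of either of these groups. In SurvNESmut-GFP cells its levels were 249 and 253 CPM without and 262 and 269 CPM with TMZ (0.08 ± 0.05, adjusted p = 0.195). CDH11, the type II cadherin of mesenchymal cells, fell in both clones, from 18.6 and 15.6 to 11.7 and 12.2 CPM (-0.52 ± 0.11) and from 22.1 and 22.5 to 10.2 and 11.3 CPM (-1.05 ± 0.11, adjusted p = 1.15e-06).

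CDH13 (T-cadherin), which is held in the membrane by a GPI anchor and lacks a cytoplasmic domain, rose in both clones. Its level went from 179.5 and 185 to 304 and 276 CPM in Surv-GFP (0.67 ± 0.05, adjusted p = 1.98e-08) and from 284 and 277 to 428 and 449.9 CPM in SurvNESmut-GFP cells (0.65 ± 0.05, adjusted p = 8.71e-08). The effects differed by -0.02 ± 0.08 between the clones (adjusted p = 0.848), and CDH13 was the only member that rose in both. CDH24, a type II cadherin, had 14.3 and 17.1 CPM without and 13.96 and 14.9 CPM with TMZ in Surv-GFP (-0.12 ± 0.11, adjusted p = 0.365) and rose from 21.5 and 22.6 to 37.7 and 34.0 CPM in SurvNESmut-GFP cells (0.70 ± 0.09, adjusted p = 1.23e-05). CDH12 and CDH18 did not pass in either clone, with -0.05 and 0.14 in Surv-GFP and -0.02 and 0.21 in SurvNESmut-GFP cells.

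**Figure D4:**
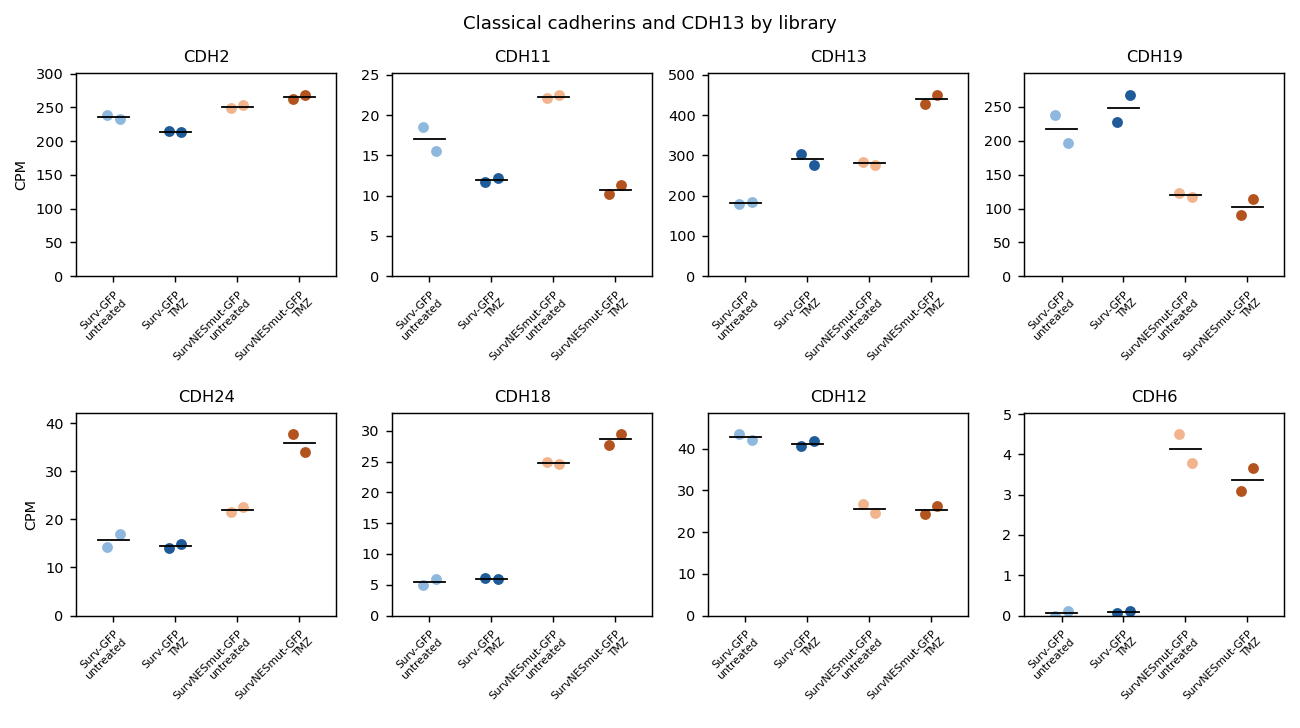
CPM of 7 classical cadherins and CDH13 in each library (points) with the group mean (line), on axes that start at 0. CDH13 is higher with TMZ in both clones, CDH11 lower, and CDH6, CDH18 and CDH24 lie higher in the SurvNESmut-GFP libraries.

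E-cadherin was near or at 0 throughout, with CDH1 at 1 and 0 counts without and 0 and 0 counts with TMZ in Surv-GFP and 0 and 0 counts without and 1 and 2 counts with TMZ in SurvNESmut-GFP libraries. P-cadherin (CDH3) had a single count in 1 of the 8 libraries, and R-cadherin (CDH4) had 0 to 2 counts per library. VE-cadherin (CDH5), the endothelial member, had 1 count in all libraries together. CDH16, CDH17, CDH20, CDH23 and PCDH19 had 0 counts in every library, which by counting error alone allows up to 3 counts over a group, the limit used for all groups at 0. The 22 members without enough counts were 12 CDH genes, CDHR1, CDHR2, CDHR5, PCDH8, PCDH15, PCDH19, PCDHB1, PCDHGA3, PCDHGA12 and PCDHGB5. Among them CDHR1, a photoreceptor cadherin, had 2 and 1 counts in untreated and 12 and 9 in exposed Surv-GFP libraries, a ratio of 7.09 (95% counting interval 2.12 to 37.1), and 0 in all 4 SurvNESmut-GFP libraries.

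Whether TMZ acted differently in the clones was tested directly, as the TMZ effect in SurvNESmut-GFP minus that in Surv-GFP cells. Of the 70 members 14 had a higher and 6 a lower effect in SurvNESmut-GFP, beside 36.8% of all tested genes called, 16.6% higher and 20.2% lower, and the median difference was 0.24 for members and -0.001 for all genes. PCDHB5, PCDHB8 and PCDH18 fell in both clones, and further in Surv-GFP cells. PCDH1 had the difference with the smallest p, -0.87 ± 0.07 (adjusted p = 8.04e-08), followed by CDH24 with 0.82 ± 0.14 (adjusted p = 2.29e-04) and PCDHB8 with 0.61 ± 0.11 (adjusted p = 3.28e-04). PCDH18 (1.15 ± 0.23) and PCDH7 (0.73 ± 0.13) followed, and PCDHGB6 (-0.78 ± 0.22) and CDH19 (-0.42 ± 0.14) went the other way. The call of PCDHGB6 was lost without replicate b of either Surv-GFP group or untreated replicate a of SurvNESmut-GFP, and that of CDH19 without any 1 of 5 libraries or with DESeq2. In the beta cluster 6 of 15 genes had a higher effect in SurvNESmut-GFP and 0 a lower one (0 by edgeR also at an unadjusted p under 0.05, and 0 by DESeq2). PCDHGC3 (-0.41 ± 0.14, adjusted p = 0.0321) and CDH11 (-0.53 ± 0.15, adjusted p = 0.0120) fell further in SurvNESmut-GFP, but PCDHGC3 was not called when any 1 of 6 libraries was left out, nor CDH11 without replicate b of either Surv-GFP group, and neither was called with DESeq2. The 9 genes called under every alternative in which they were tested were CDH24, PCDH1, PCDH7, PCDH18, PCDHA1, PCDHAC2, PCDHB5, PCDHB8 and PCDHB14.

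The clones differed in the family without any drug. In untreated cells 23 members were higher and 31 lower in SurvNESmut-GFP than in unexposed Surv-GFP cells, beside 64.1% of all genes called, 34.7% higher and 29.4% lower. With TMZ 20 were higher and 28 lower, beside 69.2% of all genes called, 34.5% higher and 34.7% lower. Higher in both conditions were 18 members (78.3% of the first and 90.0% of the second list), lower in both 23 (74.2% and 82.1%), and 0 were called in opposite directions. The same overlap was not counted over all tested genes, so it is not shown to be a trait of the family. The neuronal markers, with DCX and STMN2 at 0 in all groups, summed to 213 to 234 CPM in Surv-GFP and 70.9 to 79.9 CPM in SurvNESmut-GFP libraries, but the single markers differed. MAP2 had 167 and 153 CPM without and 55.3 and 65.3 CPM with TMZ in Surv-GFP and 20.2 and 18 CPM without and 12.4 and 14.6 CPM with TMZ in SurvNESmut-GFP cells. SYT1 went the other way upon TMZ, with 43.5 and 42.2 CPM without and 162 and 159 CPM with TMZ in Surv-GFP and 33.8 and 33.2 CPM without and 48.9 and 51.1 CPM with TMZ in SurvNESmut-GFP cells. SNAP25 did not pass between the untreated clones (-0.03 ± 0.11) and was higher in SurvNESmut-GFP with TMZ (0.44 ± 0.14). The part of these markers in the differences was not tested. Gamma genes were mostly lower in SurvNESmut-GFP (13 lower and 2 higher of 19 without TMZ), beta genes too (9 and 3 of 15), whereas alpha genes were mostly higher (10 higher and 1 lower of 15). These 10 include PCDHA9, PCDHA10 and PCDHA13, which passed the filter on low counts only through the SurvNESmut-GFP groups. Among the 23 members higher without TMZ, CDH6, PCDH12 and CDHR3 also passed it only through these groups.

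The alpha cluster differed in which genes were read. PCDHA1, the first gene of the cluster, had 22.3 and 24.8 CPM in untreated Surv-GFP and 2.82 and 2.56 CPM in untreated SurvNESmut-GFP cells (-3.13 ± 0.14, adjusted p = 6.68e-12), and took 35.0% and 36.4% against 3.45% and 3.41% of the cluster's counts. PCDHA7 showed the reverse, with 1.52 and 1.55 against 15.8 and 12.1 CPM (3.19 ± 0.20, adjusted p = 5.23e-10) and 2.38% and 2.27% against 19.4% and 16.2% of the counts. Both differences remained with TMZ (-2.08 ± 0.16 and 3.87 ± 0.26), and the libraries of the clones did not overlap. PCDHA3 lay closer, with 8.24 and 8.78 against 12.6 and 12.2 CPM (0.54 ± 0.13).

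**Figure D5:**
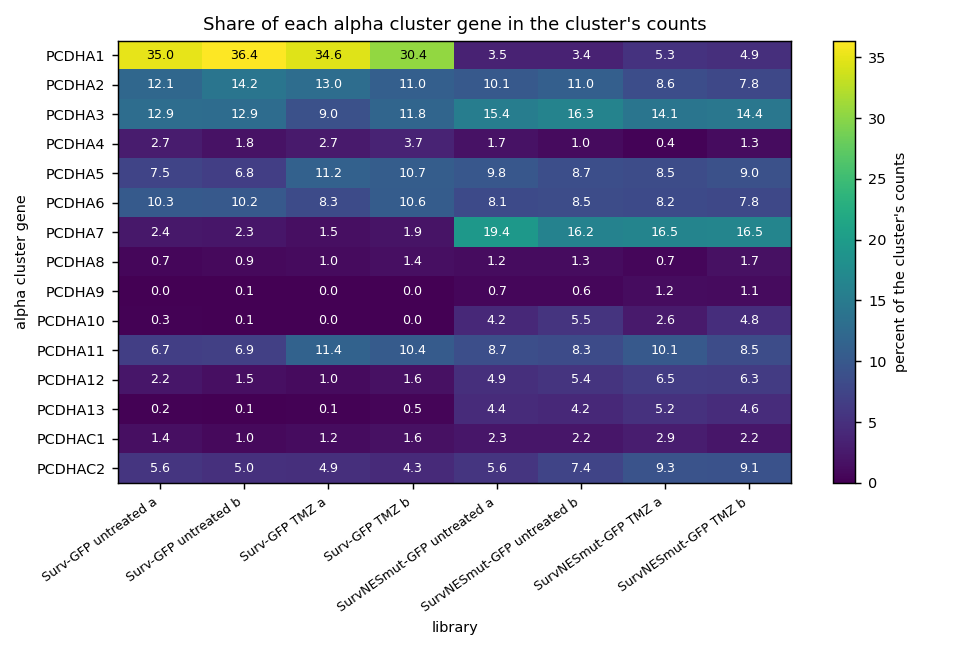
Percent of the alpha cluster's counts that each of its 15 genes, in chromosomal order, took in each of the 8 libraries. PCDHA1 takes 30.4% to 36.4% in the 4 Surv-GFP and 3.41% to 5.29% in the 4 SurvNESmut-GFP libraries, and PCDHA7 takes 1.48% to 2.38% and 16.2% to 19.4%.

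PCDHA9 to PCDHA13 lie next to each other, and PCDHA9, PCDHA10 and PCDHA13 had at most 3 counts in each Surv-GFP library. PCDHA13 had counts of 2 and 1 in untreated Surv-GFP and 67 and 57 in untreated SurvNESmut-GFP libraries, a ratio of 41.5 (95% counting interval 13.9 to 204). PCDHA10 had 3 and 1 counts without and 0 and 0 counts with TMZ in Surv-GFP and 64 and 74 counts without and 22 and 45 counts with TMZ in SurvNESmut-GFP libraries. With TMZ this is 24.5-fold higher when the group at 0 is set to 3 counts, a value that leaves out the counting error of the higher group. PCDHA9 had 0 and 0 against 10 and 10 counts with TMZ, 7.30-fold higher on the same basis. PCDHA12 had 1.41 and 1.05 against 4.01 and 4.06 CPM without TMZ (1.71 ± 0.23), while PCDHA11 had 4.28 and 4.69 against 7.10 and 6.22 CPM (0.57 ± 0.15). All 5 genes were called higher in untreated SurvNESmut-GFP cells. PCDHA9, PCDHA10 and PCDHA13 passed the filter on low counts only through the SurvNESmut-GFP groups, so their calls were nearly fixed in advance and add no support. The motif of the alpha promoters shown above was found in PCDHA1, PCDHA7, PCDHA10 and PCDHA12 alike, and thus in genes that were high in either clone.

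Several beta and gamma genes were far lower in SurvNESmut-GFP cells. PCDHB15 had 32.8 and 32.5 CPM in untreated Surv-GFP and 6.02 and 5.56 CPM in untreated SurvNESmut-GFP cells (-2.49 ± 0.10, adjusted p = 3.04e-12), and -1.91 ± 0.10 with TMZ. PCDHGB1 had 6.50 and 5.63 against 1.08 and 0.722 CPM (-2.74 ± 0.29) and PCDHGB2 57.7 and 53.6 against 24.8 and 22.7 CPM (-1.23 ± 0.09). PCDHGA9 went the other way, with 0.542 and 0.718 against 2.33 and 2.06 CPM (1.79 ± 0.32). PCDHB16, with -0.12 ± 0.06 and an adjusted p of 0.110, was not called between the clones.

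Of the type II cadherins, CDH6, known from kidney and neural crest, was near or at 0 in the Surv-GFP clone. CDH6 had counts of 0 and 2 in untreated Surv-GFP and 83 and 68 in untreated SurvNESmut-GFP libraries, a ratio of 75.8 (95% counting interval 20.6 to 631), and with TMZ 1 and 2 against 53 and 58 (ratio 40.5, interval 13.5 to 200). CDH6 passed the filter on low counts only through the SurvNESmut-GFP groups, so its calls between the clones were nearly fixed in advance and add no support. CDH18 had 4.93 and 5.91 against 24.9 and 24.6 CPM without TMZ (2.19 ± 0.11, adjusted p = 3.63e-11). CDH19, a cadherin of Schwann cell precursors, was lower in SurvNESmut-GFP, with 239 and 198 against 124 and 117 CPM without (-0.86 ± 0.10) and 228 and 268 against 90.9 and 114 CPM with TMZ (-1.28 ± 0.10), and so was CDH12 (-0.74 ± 0.07). CDH2 did not pass between untreated clones (0.09 ± 0.05, adjusted p = 0.0936) and was higher in SurvNESmut-GFP with TMZ (0.31 ± 0.05, adjusted p = 1.79e-05). CDH13 was higher in SurvNESmut-GFP in both conditions (0.62 ± 0.05 and 0.60 ± 0.05).

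Among non-clustered protocadherins PCDH10 was -2.29 ± 0.08 without and -2.66 ± 0.10 with TMZ on the log2 scale, lower in SurvNESmut-GFP, and PCDH9 -1.55 ± 0.08 and -1.72 ± 0.09. PCDH7 followed with -1.62 ± 0.09 and -0.90 ± 0.10. PCDH12, in contrast, had 3 counts in untreated Surv-GFP against 26 in untreated SurvNESmut-GFP cells, a ratio of 8.70 (95% counting interval 2.67 to 44.9). PCDH12 passed the filter on low counts only through the SurvNESmut-GFP groups, so its calls between the clones add no support.

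Partners of the family were read from 7 lists, whose counts stand beside 28.9% of all genes called lower and 30.1% higher in Surv-GFP and 19.1% and 18.6% in SurvNESmut-GFP cells. The lists are short, and their counts are given as a description, not as a difference from all genes. Of the 11 tested catenins and plaque partners 2 rose and 3 fell upon TMZ in Surv-GFP, and 1 rose and 4 fell in SurvNESmut-GFP cells, with list medians of -0.08 and 0.04. CTNNB1 (beta-catenin), which binds the tail of classical cadherins, fell in both clones (-0.54 ± 0.05 and -0.55 ± 0.05). Of the 17 tested regulators of the protocadherin clusters 2 rose and 8 fell in Surv-GFP and 3 rose and 6 fell in SurvNESmut-GFP cells, with medians of -0.07 and -0.07. The cohesin subunits RAD21 (-0.67 ± 0.06 and -0.49 ± 0.06) and SMC3 (-0.63 ± 0.06 and -0.36 ± 0.06) fell in both clones. The regulators did not all move together. In Surv-GFP cells the cohesin subunit STAG2 had 188 and 195 CPM without and 202 and 211 CPM with TMZ, and CTCF 127 and 131 against 123 and 123 CPM. In SurvNESmut-GFP cells STAG2 had 211 and 210 against 164 and 178 CPM, and CTCF 95.2 and 95.5 against 88.7 and 87.9 CPM. SMCHD1, a repressor of clustered protocadherins, was lower in SurvNESmut-GFP cells without TMZ (-0.60 ± 0.05).

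Of the 6 transcription factors that repress E-cadherin 4 fell in Surv-GFP, and 1 rose and 4 fell in SurvNESmut-GFP cells. SNAI1 fell in both clones (-1.43 ± 0.09 and -1.17 ± 0.09), ZEB1 too (-0.21 ± 0.06 and -0.24 ± 0.07), while SNAI2 rose in SurvNESmut-GFP (0.87 ± 0.11) and had 0.13 ± 0.08 in Surv-GFP (adjusted p = 0.202). The 10 proteases that cleave cadherins gave 5 higher and 3 lower in Surv-GFP and 3 higher and 1 lower in SurvNESmut-GFP cells, with ADAM10 lower in both (-0.53 ± 0.05 and -0.37 ± 0.05) and ADAM17 higher in Surv-GFP (0.72 ± 0.05) and at -0.08 ± 0.05 in SurvNESmut-GFP cells. ADAM15 rose in SurvNESmut-GFP cells (0.46 ± 0.05).

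Of 9 tested members of the wider superfamily 4 rose and 5 fell in Surv-GFP and 2 rose and 3 fell in SurvNESmut-GFP cells, with CELSR1 (0.95 ± 0.07 and 1.25 ± 0.09) and CELSR3 (0.73 ± 0.11 and 0.20 ± 0.06) higher and DCHS1 (-1.17 ± 0.09 and -0.45 ± 0.11) lower in both. CELSR3 was also 3.20 ± 0.09 higher in untreated SurvNESmut-GFP cells. Of 3 tested desmosomal genes 2 rose in Surv-GFP and 1 in SurvNESmut-GFP cells, with DSG2 in both (0.32 ± 0.05 and 0.22 ± 0.05) and DSC2 in Surv-GFP (0.87 ± 0.16), while DSP had 0 and 2 counts without and 0 and 0 counts with TMZ in Surv-GFP against 16 and 12 counts without and 19 and 26 counts with TMZ in SurvNESmut-GFP libraries. The 12 signalling partners of protocadherins gave 3 higher and 3 lower in Surv-GFP and 2 higher and 3 lower in SurvNESmut-GFP cells. CYFIP2 of the WAVE complex rose in both clones (1.69 ± 0.22 and 0.41 ± 0.10) and was 3.66 ± 0.17 higher in untreated SurvNESmut-GFP, where WASF3 was 3.86 ± 0.32 higher. CYFIP1 fell in Surv-GFP (-0.44 ± 0.05). The plaque partners MLLT4 (1.40 ± 0.06) and ARVCF (1.23 ± 0.12) were higher in untreated SurvNESmut-GFP cells.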

How the data were processed

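Gene expression was measured by RNA-seq in 8 libraries. The read counts per gene symbol were deposited by the authors without normalization, and per the submitters' processing notes STAR 2.5.0b, Cufflinks 2.2.1 and edgeR were used. The sources used here name no genome build, annotation or strand setting. The counts had 2 rows that name no gene, left out of library sizes: reads without a feature were 11.2% to 14.3% and ambiguous reads 1.19% to 1.28%. The authors' 5 comparison tables (log2 fold change, log CPM, F, p and FDR) were not used. Counts were tested with edgeR 4.0.16 (R 4.3.3): filterByExpr, TMM, 1 model of 4 group means and the quasi-likelihood F test. P-values were Benjamini-Hochberg adjusted over 14201 genes per comparison and called at 0.05. The standard error is the absolute log2 fold change divided by the root of F, and ± gives it. Counting intervals are exact conditional 95% intervals and cover counting error only. A group at 0 is set to 3 counts over the group, and folds against it carry no interval. DESeq2 1.42.0 and other settings were alternatives. The steps were tested on simulated data.

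Genes were named by a rule: CDH1, CDH2, CDH3, CDH4, CDH11, CDH13 and tested non-clustered protocadherins, the 6 most expressed tested genes per cluster, the 4 smallest p-values per direction and comparison, and 3 genes per partner list. PCDHA9 to PCDHA12, PCDHAC2, PCDHB3, PCDHB13, PCDHB14, PCDHGA9, PCDHGB1, PCDHGC4, PCDHGC5, CDH5, CDH12, CDHR1, CDHR3, the regulators STAG2 and CTCF, and genes at 0 were added after their values were seen. Members and lists were chosen with earlier results of these data known.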

Additional observations from a re-analysis of the deposited data

Results flagged for a closer look

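For 20 members the TMZ effect differed between the clones (edgeR's interaction contrast over all tested genes, adjusted p under 0.05), and each value is the log2 effect in SurvNESmut-GFP minus that in Surv-GFP. Of the classical cadherins, CDH24 had 0.82 and CDH2 0.22, while CDH11 had -0.53 and CDH19 -0.42. Of the non-clustered protocadherins, PCDH18 had 1.15, PCDH7 0.73 and PCDH17 0.30, while PCDH1 had -0.87 and PCDH10 -0.37. In the alpha cluster PCDHA12 had 1.15, PCDHAC2 1.06 and PCDHA1 1.04. In the beta cluster PCDHB3 had 0.75, PCDHB14 0.64, PCDHB8 0.61, PCDHB15 0.59, PCDHB5 0.55 and PCDHB13 0.51. In the gamma cluster PCDHGB6 had -0.78 and PCDHGC3 -0.41. PCDH1 was the member that rose in one clone and fell in the other.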

How the results depend on the processing

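Under the alternatives run (another scaling, no filter, at least 1 CPM in 2 libraries as filter, DESeq2, the newer edgeR method, only the libraries compared, a replicate block, and each library left out) no named gene's called direction reversed. Of the named genes' values under these settings 2344 kept direction and side of the threshold, 98 no longer passed, 33 newly passed, and 37 that were never called changed sign. Without a filter 5 members rose in Surv-GFP in place of 3. With DESeq2, 7 beta and 4 alpha genes fell in SurvNESmut-GFP in place of 11 and 7, and 2 members in place of 6 had a lower TMZ effect there. With single libraries left out, where the remaining library is taken to vary like the other groups, members that rose in Surv-GFP were 3 to 5 and gamma genes that fell there 6 (without TMZ replicate a) to 12. In SurvNESmut-GFP 17 (without untreated replicate a) to 33 members fell, among them 6 to 12 beta genes (7 without untreated replicate b or TMZ replicate a) and 2 to 7 alpha genes (3 without TMZ replicate a). Members with a higher effect in SurvNESmut-GFP were 9 (without Surv-GFP untreated replicate a) to 17 and with a lower one 1 (without replicate b of either Surv-GFP group) to 7. The cause was not tested. Called under every alternative in which they were tested were 31 of 40 members for TMZ in Surv-GFP, 18 of 33 in SurvNESmut-GFP, 9 of 20 for the difference, and 36 of 54 and 39 of 48 between the clones. The letters a and b showed no pairing of the libraries (correlations of same-lettered deviations -0.067 to 0.083), which with 2 libraries per group cannot exclude it. With the replicate block 37 members fell in Surv-GFP cells, 29 fell in SurvNESmut-GFP cells, and 11 and 6 had a higher and a lower difference. With 2 libraries per group, small differences and genes with few counts cannot be resolved.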
